A study of Mus musculus with 28 samples.

Results

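Subclone 5 of the mouse kidney cell line mIMCD-3 was compared with subclones 1, 2, 3 and 4, using the 4 libraries of subclone 5 and the 16 libraries of the others out of 28 libraries in the series. Of 45706 genes listed, 12280 had a mean of at least 1 TPM in subclone 5 or over the 16 other libraries and were tested, 427 of them on chromosome 12. Through subclone 5 alone 133 genes were kept, and through the others alone 263. Hoxc4 with means of 1 TPM in subclone 5 and 0.844 TPM in the others was the named gene nearest to the limit among those kept, and Slc41a2 with 0.998 and 0.889 TPM was the nearest among those left out.

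The study asked how much wild-type cells that have not been edited differ from each other when they are grown from single cells. mIMCD-3 is an epithelial line that was derived from the inner medulla of the kidney of a mouse transgenic for the early region of SV40. It was established as a monoclonal line, and the study concludes from its own data that the culture it used is polyclonal. A single cell sorted from this culture gave the monoclonal line WT5, and single cells sorted from WT5 gave the 5 subclones. No gene was targeted and no agent was given to any of the 20 libraries, which share the medium, the serum and the time after full confluency at which RNA was isolated. Each subclone is 1 clone, so its 4 libraries are repeats of 1 line, and the p-values measure the spread between libraries of a line and not between clones. The methods call the libraries biological replicates and a legend calls them technical. All 5 are wild type and share whatever the sorted WT5 cell carried. The files hold RNA levels, and DNA copy number was not analysed here.

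The collecting duct is the last segment of the nephron, where sodium passes through the epithelial sodium channel, water through aquaporins and urea through its transporters. The RNA levels of its cells can be followed by chromosome, where genes of unlike function lie side by side, or by pathway, where genes under a common regulator are scattered over the genome. Among such regulators, hypoxia-inducible factor raises glycolytic enzymes when oxygen is low and is marked for destruction by prolyl hydroxylases, and stress sensors of the endoplasmic reticulum raise its chaperones.

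Epithelial markers were present in every library. Epcam ranged from 427 to 572 TPM over the 20 libraries, Krt18 from 594 to 784 TPM and Pax8, a renal transcription factor, from 137 to 202 TPM. Defining genes of the collecting duct were low or absent, with the water channel Aqp2 listed at 0 in all 20 libraries, the vasopressin receptor Avpr2 at or below 0.4 TPM, Gata3 at or below 0.23 TPM and Aqp3 at or below 1.65 TPM. The summed level of the 4 endothelial markers was at most 0.09 TPM in subclone 5 and 0.05 TPM in the others, and that of the 8 fibroblast and smooth muscle markers ranged from 0.37 to 1.54 TPM and from 0.51 to 1.07 TPM. The 4 leukocyte markers summed to between 28.4 and 41.4 TPM in subclone 5 and between 30.4 and 55.6 TPM in the others, nearly all of it Csf1r, while Ptprc stayed at or below 0.17 TPM and Adgre1 was listed at 0. For the 6 proximal tubule markers the sums were 5.99 to 10.3 TPM and 4.53 to 9.93 TPM, nearly all of it Lrp2, with Slc34a1 and Hnf4a listed at 0. In RNA from whole cultures, fewer cells of a type and less RNA per cell cannot be told apart.

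Some libraries stood apart. In replicate 1 of subclone 5 the 50 most abundant genes took 28.5% of all TPM, against 24.6% to 26.2% in its other replicates and 22.4% to 27.7% in the 16 other libraries, and its median over genes outside chromosome 12 was -0.195 on the log2 scale against the mean of the subclones. Replicate 2 of subclone 3 was nearly as low in that measure, at -0.171. Subclone 4 differed from subclones 1, 2 and 3 in the median level of the genes of 2 chromosomes, as described below, so the values without it are given beside the results that it touches. TPM scales each library to the same sum and keeps no read number, so the depth is unknown, and no counting error can be given.

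Between subclone 5 and the other subclones 1450 of the 12280 genes (11.8%) passed an adjusted p of 0.01 by limma with Benjamini-Hochberg adjustment, 452 of them higher (3.68%) and 998 lower (8.13%). Differences are in log2(TPM + 0.1), subclone 5 minus the mean of the means of subclones 1 to 4, a scale that understates changes of low genes. Most were small, and the median over all genes tested was -0.03. When the median of genes outside chromosome 12 was set equal in every library, 893 genes were higher and 1153 lower, and with z-scores the numbers were 972 and 1077. Without replicate 4 of subclone 5 the higher genes numbered 283. A stricter group, called genes set apart here, held the 71 genes (0.578%) that also differed by at least 1 on the log2 scale and had all 4 libraries of subclone 5 above or all below the 16 others, 30 of them higher (0.244%) and 41 lower (0.334%). Of the 71, 11 had passed the filter of 1 TPM through subclone 5 alone and 13 through the others alone, so that they had to differ to some degree. At its edge, Slc40a1, the iron exporter ferroportin, lay inside at -1.0, and Slc29a4 at -0.99 lay outside. Among genes that were higher, H60b lay inside at 1.03 and Cldn1, a claudin of tight junctions, lay outside at 0.995.

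Genes of chromosome 12 were lower in subclone 5 as a body. Of the 427 tested, 273 fell (63.9%), against 725 of 11853 on all other chromosomes (6.12%), and 5 rose (1.17%, against 3.77%). Their median log2 difference was -0.36, a ratio of 0.781, while the medians of the other 19 chromosomes lay between -0.05 and 0.04. On no other chromosome did more than 7.76% of the genes tested fall. A difference below 0 was found for 407 genes of chromosome 12 (95.3%), against 57.3% elsewhere. The mean of subclone 5 was the lowest of the 5 subclones for 368 genes of chromosome 12 (86.2%), against 30.4% of the genes elsewhere, and these are the genes counted here with the coordinated drop. All 4 libraries lay below all 16 others for 112 genes (26.2%), against 1.92% elsewhere. The drop was narrow, as the log2 differences from the 25th to the 75th percentile lay between -0.45 and -0.27, and 304 of the 427 lay between -0.5 and -0.2.

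**Figure D1:**
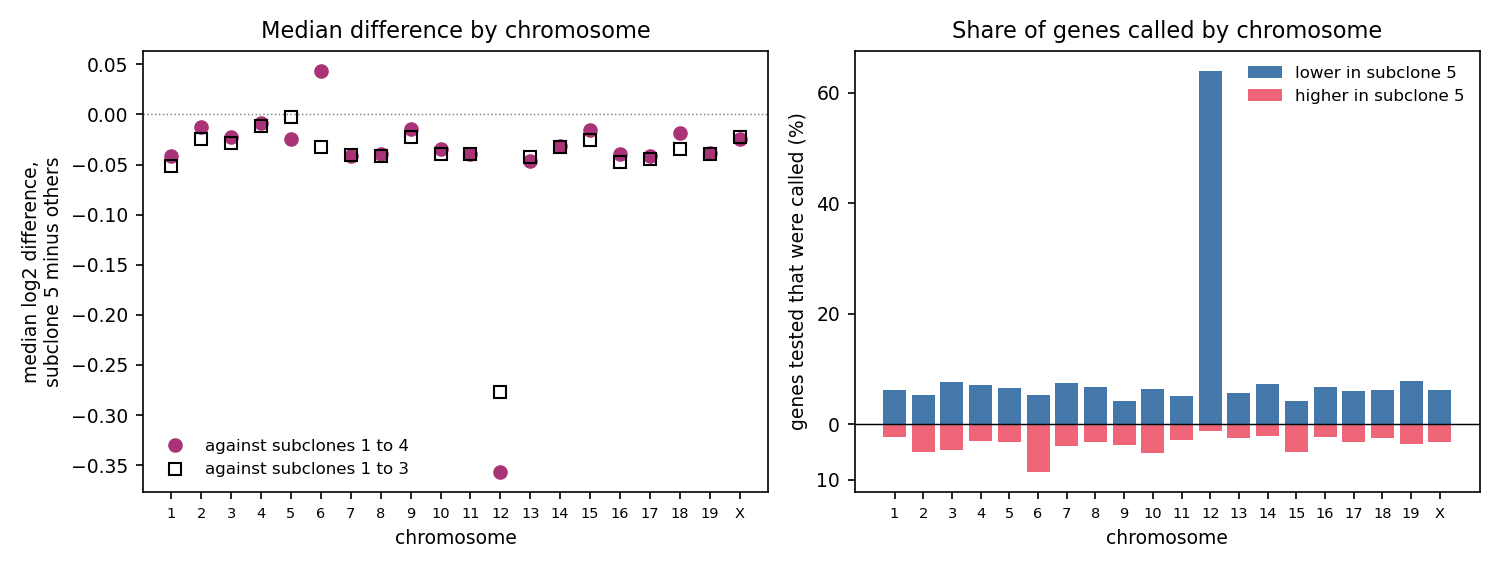
Left, median log2 difference of the genes of each chromosome between subclone 5 and subclones 1 to 4 (filled circles) or 1 to 3 (open squares). Right, percent of the genes tested on each chromosome that were called lower (bars upward) or higher (bars downward) at an adjusted p below 0.01. Chromosome 12 lies at -0.36, or -0.28 without subclone 4, with 63.9% of its genes lower, and the only chromosome whose median moves to the other side of 0 without subclone 4 is chromosome 6.

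The drop was present in each library of subclone 5. Relative to the genes of all other chromosomes in the same library, the median log2 deviation of chromosome 12 genes was -0.263, -0.257, -0.270 and -0.266 in its replicates 1 to 4. In the 12 libraries of subclones 1, 2 and 3 it lay between -0.036 and 0.003, and in the 4 of subclone 4 between 0.286 and 0.310. No library of subclone 5 overlapped with any other, and replicate 1, which stood apart for abundant genes, lay within the range of the other 3 in this measure. The share of all TPM that fell on chromosome 12 was 1.93%, 1.92%, 1.93% and 1.97% in subclone 5, a mean of 1.93% ± 0.0212 (SD, n = 4). The means were 2.40% ± 0.0324, 2.35% ± 0.0314 and 2.32% ± 0.0536 in subclones 1, 2 and 3 and 3.00% ± 0.0636 in subclone 4.

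**Figure D2:**
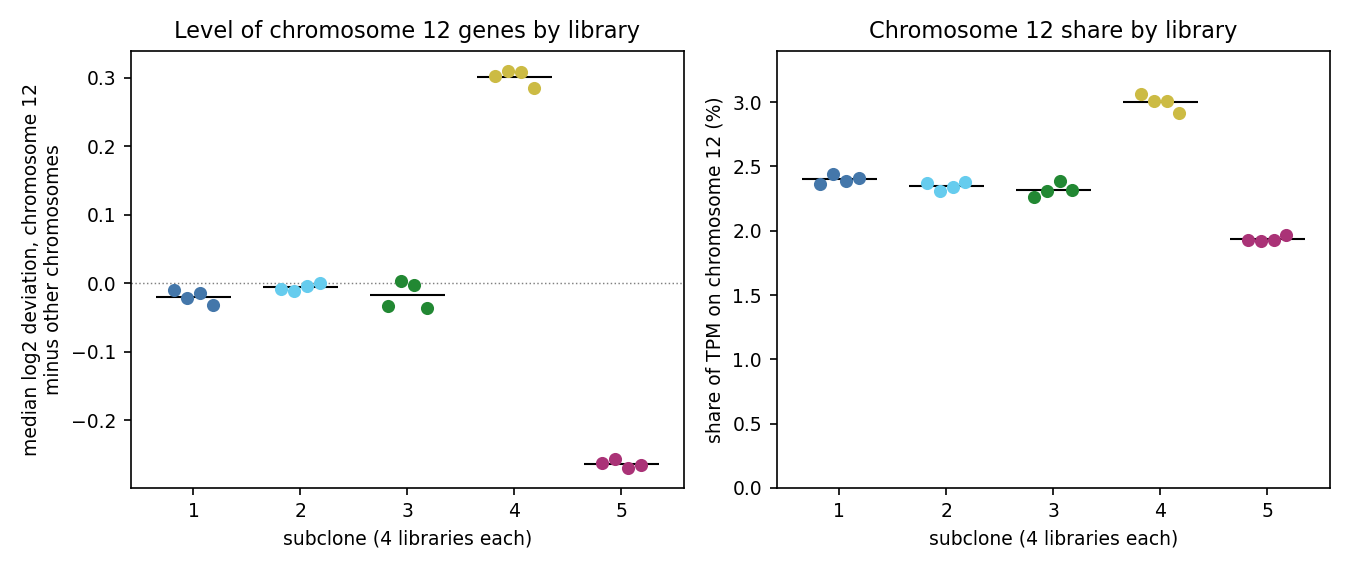
Left, median log2 deviation of chromosome 12 genes minus that of all other genes, 1 point per library, with the line at the mean of 4 libraries of a subclone. Right, percent of TPM on chromosome 12 in the same libraries. The 4 libraries of subclone 5 sit between -0.270 and -0.257 on the left and between 1.92% and 1.97% on the right, below every other library, and those of subclone 4 sit above every other library.

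The drop was larger with subclone 4 in the comparison than without it. Genes of chromosome 6 were lower in subclone 4, with a median log2 deviation between -0.278 and -0.235 in its libraries and between -0.127 and 0.140 in the 16 others. With subclone 4 left out, the median of chromosome 12 was -0.28, a ratio of 0.826, and 156 genes of chromosome 12 fell (36.5%, against 3.75% elsewhere), of which 154 were among the 273 above. Against one subclone at a time, the median was -0.29 against subclone 1, -0.29 against subclone 2, -0.25 against subclone 3 and -0.60 against subclone 4, and 158, 128, 98 and 335 genes of chromosome 12 fell. In the same order, 5.20%, 3.18%, 2.57% and 7.75% of the genes elsewhere fell, so the genes of chromosome 12 were more often lower in each of the 4 contrasts, which share the libraries of subclone 5. On chromosome 6, 51 genes rose in the comparison with all 4 subclones and 14 in that without subclone 4.

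The drop ran along the whole of the chromosome that could be measured. Over 17 consecutive windows of 25 genes, from Rab10os at 3235504 to Itgb8, which ends at 119238802 (GRCm38), the window medians lay between -0.43 and -0.28, or between -0.37 and -0.20 without subclone 4, and each window held 12 to 22 genes that fell. Only the last 2 genes tested, Gm6768 and Macc1, had a median near 0. It was also found at all levels of expression, with medians between -0.39 and -0.33 in each of 4 bands of mean TPM. The percent that fell was 28.8% under 5 TPM, 57.6% from 5 to 20 TPM, 79.1% from 20 to 100 TPM and 75.6% at 100 TPM or more, while outside chromosome 12 it lay between 5.34% and 7.73% in the same bands. Of 260 genes of chromosome 12 whose longest transcript shares no stretch of 50 bases with another gene, 169 fell (65.0%), with a median of -0.36.

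**Figure D3:**
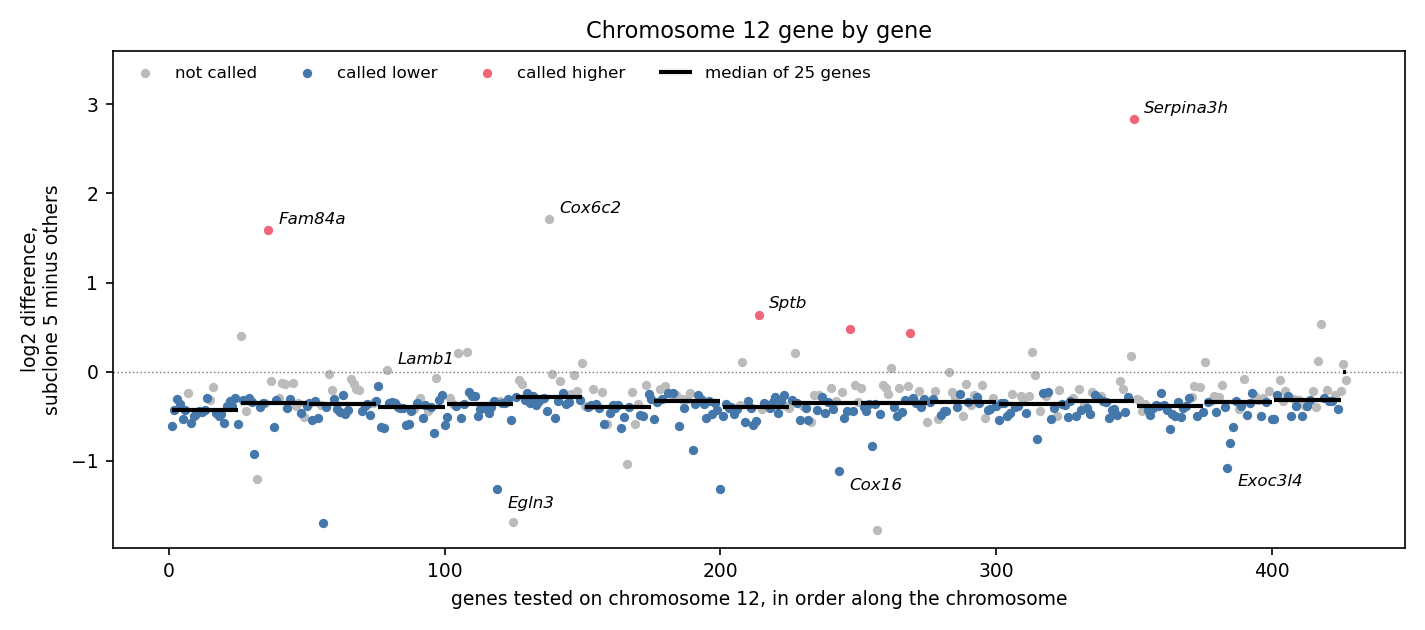
Log2 difference between subclone 5 and the others for each of the 427 genes tested on chromosome 12, placed in their order along the chromosome, with calls at an adjusted p below 0.01 in colour. Black bars are medians of 25 consecutive genes and stay between -0.43 and -0.28, apart from the last 2 genes, while Serpina3h (2.83) and Fam84a (1.59) lie far above and Egln3 (-1.32), Cox16 (-1.11) and Exoc3l4 (-1.08) below.

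The 8 most abundant genes of chromosome 12 had log2 differences between -0.59 and -0.16, and 6 of them fell. Ywhaq, a 14-3-3 adaptor protein, had 555, 502, 514 and 503 TPM in subclone 5, and the 16 other libraries ranged from 649 to 961 TPM with a median of 703 (log2 difference -0.52 ± 0.0434 SE, adjusted p = 3.97e-08). Erh, a small RNA-processing factor, had 319, 288, 302 and 271 TPM against a range from 322 to 577 TPM with a median of 383 (log2 difference -0.46 ± 0.0643 SE, adjusted p = 2.77e-05). In both genes every library of subclone 5 lay below every other library. Rps29, a protein of the small ribosomal subunit, had 1758, 1295, 1365 and 1796 TPM, and the others ranged from 1669.8 to 3174 TPM with a median of 2280.5 (log2 difference -0.59 ± 0.101 SE, adjusted p = 2.53e-04), so its replicates 1 and 4 overlapped with the lowest of the others. Laptm4a, a lysosomal membrane protein (-0.39), Rpl36al, a ribosomal protein (-0.38), and Atp5mpl, a small subunit of the mitochondrial ATP synthase (-0.34), also fell, the last 2 of them no longer without subclone 4. The ribosomal protein Rps7 at -0.21 (adjusted p = 0.0813) and the chaperone Hsp90aa1 at -0.16 (adjusted p = 0.0171) did not pass the test. Several of these genes have processed pseudogenes. Of the stretches of 50 bases in the longest transcript, 59.9% in Rps7, 58.5% in Hsp90aa1, 53.1% in Erh, 33.8% in Ywhaq and 26.5% in Rps29 also occur in another gene, so their TPM is uncertain where RSEM had to share reads out.

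Protein complexes with subunits on chromosome 12 and elsewhere showed both levels side by side. Of the proteasome, Psmc1 and Psma6 on chromosome 12 fell (-0.37 and -0.37), and Psma3 stood at -0.26 (adjusted p = 0.0292), while the 32 subunits encoded elsewhere had a median of -0.03 with 1 call, the interferon-inducible Psmb9 at -0.58. Psmc1, an ATPase of the proteasome cap, had 167, 161, 161 and 174 TPM in subclone 5, and the others ranged from 189 to 263 TPM with a median of 204 (adjusted p = 1.15e-06). Psma6, a core subunit, lost its call without subclone 4 and without any 1 of replicates 2, 3 and 4 of subclone 5. For the initiation factors that bring the first tRNA to the ribosome, Eif2s1 at -0.32, Eif2b2 at -0.44 and Eif5 at -0.33 on chromosome 12 all fell, and the 6 encoded elsewhere had a median of 0.01 and no call. Eif5 had 127, 143, 140.1 and 145 TPM, below every library of the others, which ranged from 153 to 207 TPM with a median of 170.0. Without subclone 4 the first 2 of these were no longer called.

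The same held for a single subunit in larger machines. Atp6v1d, part of the rotor of the vacuolar proton pump, fell by 0.47 on the log2 scale, from a range from 102 to 144 TPM with a median of 117 in the others to 79, 89.3, 85.3 and 95.4 TPM (adjusted p = 1.12e-06). The 16 subunits encoded elsewhere had a median of -0.04 with 2 called lower, against 6.12% of all genes tested outside chromosome 12. Ahsa1, the activator of the HSP90 ATPase, fell (-0.35), and the 11 other HSP90 genes and co-chaperones outside chromosome 12 had a median of 0.05 and no call. Of the kinase pathway genes, Akt1 fell (-0.26), a call that was lost without subclone 4, Sos2 stood at -0.15 (adjusted p = 0.253), and none of the 24 members elsewhere was called. Srp54c of the signal recognition particle was called at -0.24, yet 93.9% of its stretches are shared, mostly with Srp54a (-0.09). Rrm2, a subunit of ribonucleotide reductase and the only cell cycle gene of the list on chromosome 12, fell (log2 difference -0.46 ± 0.0412 SE, adjusted p = 1.32e-07), and the 34 other cell cycle and replication genes had a median of -0.02.

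A small number of genes of chromosome 12 exceeded the drop. With subclone 5 the lowest of the subclones and a fall of at least 1 on the log2 scale there were 7, of which 4 passed the test, and 3 of these were set apart (0.703% of those tested). Egln3 (chromosome 12 from 54178981 to 54203860), a prolyl hydroxylase that acts on hypoxia-inducible factor and is itself a target of that factor, had 1.52, 2.23, 2.29 and 1.84 TPM in subclone 5. The 16 other libraries ranged from 3.24 to 9.81 TPM with a median of 4.38, the 4 highest of them from subclone 4 (log2 difference -1.32 ± 0.0955 SE, adjusted p = 6.43e-09, and -1.04 without subclone 4). Exoc3l4 (chromosome 12 from 111417017 to 111431678), related to an exocyst subunit, had 1.32, 1.37, 1.3 and 1.13 TPM against a range from 1.91 to 5 TPM with a median of 2.61 (log2 difference -1.08 ± 0.0902 SE, adjusted p = 4.75e-08, and -0.88 without subclone 4). Cox16 (chromosome 12 from 81359026 to 81485127), an assembly factor of cytochrome c oxidase, had 21.7, 17.9, 18.3 and 16.2 TPM against a range from 28.9 to 67.6 TPM with a median of 35.2 (log2 difference -1.11 ± 0.0815 SE, adjusted p = 7.62e-09, and -0.87 without subclone 4). Cox16 is uncertain, as 88.7% of its stretches also occur in the overlapping gene Gm20498 on the same strand, which had means of 17.3 TPM in subclone 5 and 21.5 TPM in the others. All 3 genes lay below every other library. The fourth that passed, 9030624G23Rik, was called at -1.70 with a mean of 0.325 TPM in subclone 5 and means of 1.07 to 1.52 TPM in the others. Klhdc1 (-1.04, adjusted p = 0.164), Gm20403 (-1.68, adjusted p = 0.158) and Gm26571 (-1.78, adjusted p = 0.0864) did not pass. Tmem30b, named after its values were seen, was called at -1.32 but does not belong with the drop by the rule, since its mean of 0.465 TPM in subclone 5 lay above that of 0.398 TPM in subclone 3, and without subclone 4 it stood at -0.61 and was not called.

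Against the drop, 20 genes of chromosome 12 had a log2 difference above 0, and 5 of them rose, or 3 without subclone 4. Serpina3h (chromosome 12 from 104247905 to 104253669), annotated as a transcribed pseudogene of the serpin family, was the single one set apart (0.234%), with 1.81, 1.5, 1.07 and 1.48 TPM against a range from 0 to 0.44 TPM with a median of 0.115 (log2 difference 2.83 ± 0.386 SE, adjusted p = 2.32e-05). Of its stretches 24.4% occur in other serpins of the same cluster. Fam84a (chromosome 12 from 14146830 to 14152054) had 0.84, 1.02, 1.06 and 1.09 TPM and means of 0.075, 0.045 and 0.133 TPM in subclones 1, 2 and 3, but 3.18 TPM in subclone 4, so subclone 5 lay between them (log2 difference 1.59 ± 0.248 SE, adjusted p = 1.03e-04). Serpina3h and Fam84a passed the filter through subclone 5 alone. The 3 others were smaller and were named after their values were seen. Sptb, a beta spectrin, was called at 0.64 and was at 0.50 without subclone 4, no longer called. Ttc9 was called at 0.48, and at 0.19 without subclone 3 it was not. Rnf113a2 was called at 0.43 with means of 10.9, 6.79, 7.73 and 1.58 TPM in subclones 1 to 4 and 7.49 TPM in subclone 5, so that its direction turned without subclone 4 (-0.15). Among those of the 20 that did not pass, Lamb1, the laminin beta chain of the basement membrane, had 77.6, 103, 99.2 and 113 TPM against a range from 66.6 to 116 TPM with a median of 96.9, a log2 difference of 0.02 (adjusted p = 0.93). Cox6c2, a processed pseudogene, was listed at 0 in 19 libraries and at 11.4 TPM in replicate 1 of subclone 5, and was not called. A further 39 genes of chromosome 12 had a log2 difference below 0, but subclone 5 was not the lowest of the subclones. With the 20 above 0 they make up the 59 genes not counted with the drop. Foxa1, a forkhead factor, was not among the 20 and stood at -0.10 (adjusted p = 0.528).

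Outside chromosome 12, 447 genes rose and 725 fell, and chromosome 12 held a smaller share of the large falls than of the moderate ones. Chromosome 12 held 427 of the 12280 genes tested and 273 of the 998 that fell (27.4%). Among genes that fell by 0.2 to 0.5 on the log2 scale 33.5% were on chromosome 12, among those that fell by 0.5 to 1 22.0%, and among those that fell by 1 or more 6.67% (5 of 75). Of the 53 smallest falls, under 0.2, 1 was on chromosome 12. Of the 71 genes set apart, 67 were on other chromosomes (0.565% of those tested, against 0.937% on chromosome 12), 38 lower (0.321%) and 29 higher (0.245%). All 71 were still called without subclone 4, and 62 were still set apart. The named genes of this group are the 12 with the largest fall and the 12 with the largest rise.

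Several of the genes that fell had almost no RNA left in subclone 5. Zfp239 (chromosome 6 from 117862100 to 117873291), a zinc finger protein, had 0, 0.02, 0 and 0.02 TPM, and the 16 other libraries ranged from 2.27 to 4.75 TPM with a median of 3.17 (log2 difference -4.87 ± 0.161 SE, adjusted p = 3.11e-14). Aplp1 (chromosome 7 from 30434982 to 30445535), a relative of the amyloid precursor protein, was listed at 0 in all 4 libraries of subclone 5, while the means were 5.5, 5.06 and 2.91 TPM in subclones 1, 2 and 4 and 0.445 TPM in subclone 3 (adjusted p = 2.26e-15). Dzip1 (chromosome 14 from 118875520 to 118925460), a protein of the centriole and basal body needed to form primary cilia, had 0.03, 0.05, 0.05 and 0.05 TPM against a range from 1.5 to 3.87 TPM with a median of 2.6 (log2 difference -4.15 ± 0.131 SE, adjusted p = 1.80e-14). For these 3 genes the log2 difference depends on the pseudocount. Zfp503, another zinc finger factor, had 0.01, 0.09, 0.07 and 0.04 TPM and was called (-3.21), but it was as low in subclones 1 (0.085 TPM) and 3 (0.12 TPM) and reached 6.6 and 13.6 TPM in subclones 2 and 4, so subclone 5 shared its low level with subclones 1 and 3.

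Other genes kept a measurable level. Ripk3, the kinase of necroptosis (chromosome 14 from 55784995 to 55788865), had 0.22, 0.67, 0.59 and 0.46 TPM, below every other library, and subclone 1 was the highest with a mean of 13.2 TPM (log2 difference -3.36 ± 0.153 SE, adjusted p = 6.43e-12). Obsl1, a cytoskeletal linker that also belongs to a ubiquitin ligase complex, had 0.75, 0.7, 1 and 1.48 TPM against a range from 3.74 to 25 TPM with a median of 9.8 (log2 difference -3.24 ± 0.124 SE, adjusted p = 3.64e-13). It overlaps Tmem198 on the other strand, a gene under 1 TPM on both sides. Cdkn1c, the imprinted inhibitor of cyclin-dependent kinases p57, had 0.99, 0.72, 0.93 and 0.62 TPM, just under subclone 1 with a mean of 1.5 TPM and well under the means of 5.66 to 6.74 TPM in subclones 2 to 4 (log2 difference -2.31 ± 0.102 SE, adjusted p = 4.29e-12). Pard6g, a polarity protein, had 0.27, 0.33, 0.22 and 0.24 TPM, and subclone 4 was nearly as low at 0.457 TPM (log2 difference -2.30 ± 0.128 SE, adjusted p = 1.19e-10). The distance to the nearest subclone was small for Cdkn1c and Pard6g and large for Ripk3 and Obsl1. Mt2, a metallothionein (-2.20), Bcas1 (-2.36), Ly6g6d, a membrane-anchored surface protein (-1.95), Zfp141 (-2.98) and Egr3, an immediate early transcription factor (-1.92), completed the 12. Of the 12, all but Bcas1 and Ly6g6d passed the filter through the others alone. Calls of Bcas1, Ly6g6d and Zfp141 were lost with the unequal-variance test, and 11.7% of the stretches of Zfp141 occur in other genes.

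Among the remaining genes set apart and lower, a few were named after their values were seen. Foxl2, a forkhead factor (log2 difference -1.75 ± 0.158 SE, adjusted p = 1.24e-07), and Foxl2os, an RNA read from the other strand next to it (-1.40), fell on chromosome 9, though neither was called with the unequal-variance test, nor Foxl2os without replicate 3 of subclone 5 (-1.23). The 2 genes overlap only from 98955288 to 98955299. As the strand of the reads is not stated in the sources used here, their levels cannot be fully told apart in that short stretch. Lhx1os on chromosome 11 was set apart (-1.01), and Lhx1 beside it, a LIM homeobox factor of kidney development, fell by 0.97 on the log2 scale with 2.88, 4.72, 5.31 and 5.06 TPM against a range from 7.01 to 10.7 TPM with a median of 8.94. Slc4a4, a sodium bicarbonate cotransporter, had 2.15, 3.05, 2.66 and 3.21 TPM against a range from 5.13 to 10.6 TPM with a median of 8.23 (log2 difference -1.51 ± 0.102 SE, adjusted p = 2.16e-09), and Slc40a1, which exports iron, was the most abundant gene of this kind with 61.8, 69.1, 68.1 and 70.2 TPM against a range from 105 to 166 TPM with a median of 135.

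Of the genes that rose, Umod (chromosome 7 from 119462711 to 119479282), uromodulin of the thick ascending limb, had 10.3, 11.4, 11.3 and 13.3 TPM in subclone 5, and the 16 others ranged from 1.84 to 4.95 TPM with a median of 2.43 (log2 difference 2.03 ± 0.0924 SE, adjusted p = 6.43e-12). Scnn1g (chromosome 7 from 121734479 to 121768475), the gamma subunit of the epithelial sodium channel, had 13.7, 17, 16.4 and 17.1 TPM against a range from 2.58 to 8.72 TPM with a median of 5.23 (log2 difference 1.57 ± 0.0909 SE, adjusted p = 2.37e-10). For both genes subclone 4 was the next highest, with means of 4.64 and 8.43 TPM, and no library overlapped. Cers4, a ceramide synthase, had 1.82, 1.14, 0.97 and 1.48 TPM against a range from 0.01 to 0.39 TPM with a median of 0.14 (log2 difference 2.58 ± 0.291 SE, adjusted p = 2.29e-06), and Mr1, which presents metabolites of vitamin B synthesis to T cells, had 1.79, 1.79, 1.85 and 2.15 TPM against a range from 0.07 to 0.69 TPM with a median of 0.275 (log2 difference 2.41 ± 0.217 SE, adjusted p = 1.29e-07). Both stayed below 1 TPM in all other libraries and were tested only because subclone 5 passed the filter, as was Mro, with 2.16, 1.77, 1.79 and 1.76 TPM against at most 0.7 TPM (log2 difference 2.04 ± 0.197 SE, adjusted p = 3.33e-07).

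In the rest of the 12, 1 or more of the other subclones also expressed the gene. Cdcp1 (chromosome 9 from 123170824 to 123216038), a membrane protein phosphorylated by Src kinases, had 26.8, 33, 31.9 and 36.9 TPM in subclone 5 and means of 16, 23.9 and 18.3 TPM in subclones 1, 3 and 4, and was listed at 0 in all 4 libraries of subclone 2, so that its log2 difference was 2.63 with subclone 2 and 0.74 without it, still called. Timp3, an inhibitor of matrix metalloproteases, had 6.73, 8.64, 8.49 and 9.32 TPM and means of 5.23, 4 and 6.14 TPM in subclones 2, 3 and 4 but 0.02 TPM in subclone 1 (2.06, and 0.70 without subclone 1). It overlaps Syn3 on the other strand, which had means of 1.97 and 2.30 TPM. The lowest library of subclone 5 (6.73 TPM) lay just above the highest of the others (6.66 TPM) for Timp3. Neither call held with the unequal-variance test or with all 16 libraries as 1 group. Igfbp2, which binds insulin-like growth factors, had 4.52, 4.23, 4.68 and 4.83 TPM, 2.4 and 1.9 TPM on average in subclones 1 and 2 and 0.102 and 0.138 TPM in subclones 3 and 4 (log2 difference 2.79 ± 0.238 SE, adjusted p = 5.88e-08). Fermt1, the integrin activator kindlin-1, had 4.62, 5.94, 6.08 and 6.11 TPM, 3.17 TPM in subclone 2 and 0.735 to 1.07 TPM in the others (2.09). Fut1, a fucosyltransferase, showed the same order, with 8.09 ± 0.909 TPM (SD, n = 4) in subclone 5, 5.28 TPM in subclone 2 and at most 1.75 TPM in the other means (1.86). Lhx2, a LIM homeobox factor (2.34), and Fam174b (2.33) were next highest in subclones 1 and 3, and both passed the filter through subclone 5 alone.

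**Figure D4:**
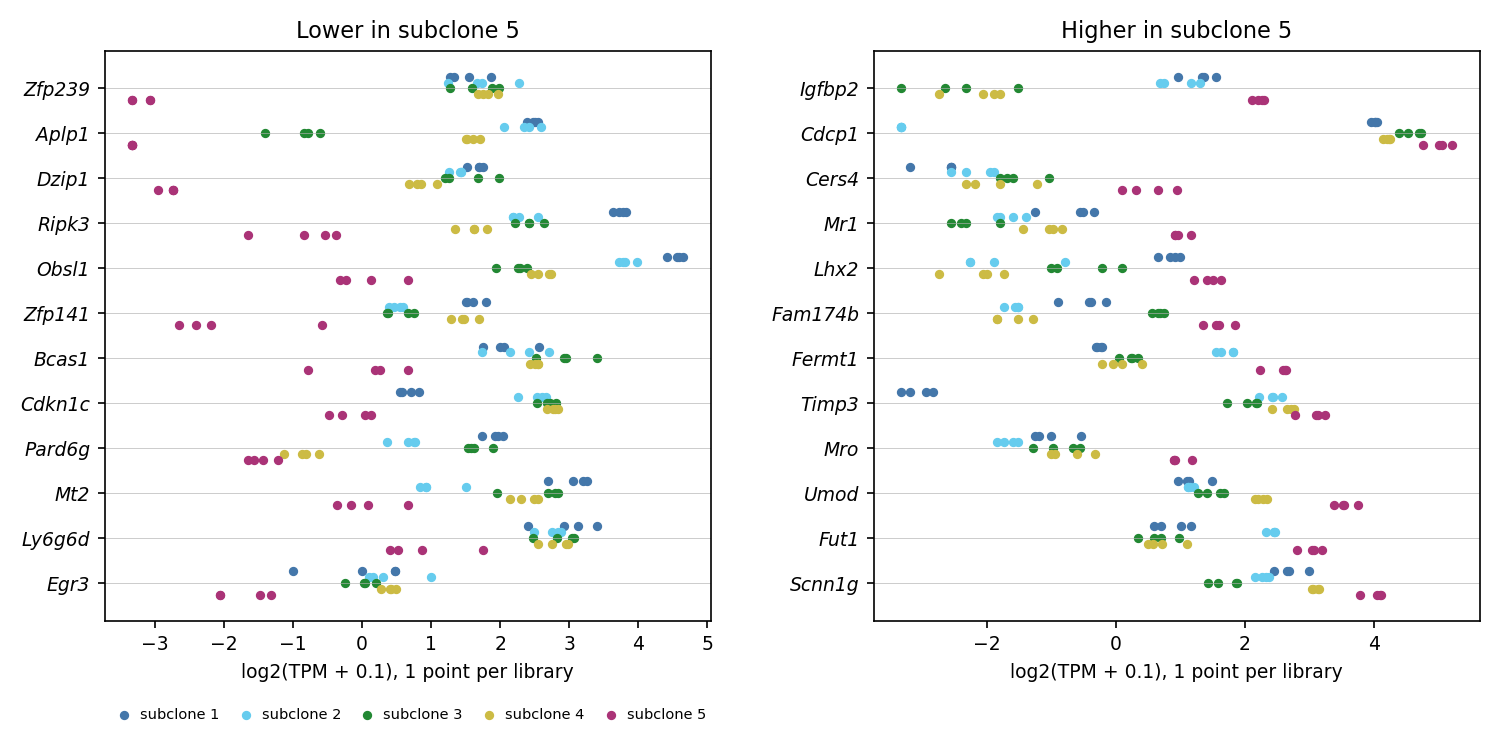
Log2(TPM + 0.1) of the 12 named genes with the largest fall (left) and the 12 with the largest rise (right) among the genes set apart outside chromosome 12, with 1 point per library and colours for the subclones. The points of subclone 5 lie outside all others in every gene because the rule for genes set apart requires it. For Aplp1, Cdkn1c and Pard6g on the left and Cdcp1, Timp3 and Igfbp2 on the right a single subclone or pair of subclones lies apart from the rest.

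Genes of the hypoxia response and glycolysis formed the list with the largest share of falls. Of 24 tested, 12 fell and none rose, with a median log2 difference of -0.36, against 8.13% lower and a median of -0.03 over all genes tested. Only Egln3 and Hif1a of them are on chromosome 12, and of the 22 encoded elsewhere 10 fell (median -0.35). Bnip3, a mitophagy receptor, had 56.3, 50.5, 60.1 and 49 TPM in subclone 5 against a range from 64.6 to 103 TPM with a median of 81.8 (log2 difference -0.62 ± 0.0894 SE, adjusted p = 4.07e-05). Ankrd37 had 13, 12.2, 10.6 and 9.83 TPM against a range from 12.7 to 28.1 TPM with a median of 18.3 (log2 difference -0.69 ± 0.084 SE, adjusted p = 5.66e-06). Pdk1, which holds pyruvate back from the mitochondrion, had 24.8, 27.7, 29.8 and 28.9 TPM against a range from 32 to 47.3 TPM with a median of 38.8 (log2 difference -0.49 ± 0.0612 SE, adjusted p = 7.71e-06). The libraries of subclone 5 lay below all others for Bnip3 and Pdk1 and overlapped with them for Ankrd37. The gene Ankrd37 overlaps Ufsp2 on the other strand, which had means of 39.7 TPM in subclone 5 and 37.7 TPM in the others. Of the stretches of Bnip3, 21.9% occur in other genes.

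The enzymes that fell span much of glycolysis. Ldha, lactate dehydrogenase, had 424, 377, 417 and 409 TPM against a range from 472 to 641 TPM with a median of 568 (log2 difference -0.47 ± 0.0646 SE, adjusted p = 2.69e-05), Pgk1, phosphoglycerate kinase, 297, 248, 285 and 276 TPM against a range from 321 to 436 TPM with a median of 382 (log2 difference -0.45 ± 0.0763 SE, adjusted p = 2.46e-04), and Eno1, enolase, 380.0, 435, 461 and 483 TPM against a range from 484 to 655 TPM with a median of 599 (log2 difference -0.43 ± 0.0648 SE, adjusted p = 6.81e-05). In each of these 3 the libraries of subclone 5 lay below all others. Pfkl (-0.42), the glucose transporter Slc2a1 (-0.37), Aldoa (-0.32) and Pgam1 (-0.27) also fell. Subclone 4 shared the low level of Slc2a1, averaging 62.4 TPM where subclone 5 averaged 63.7 TPM. For this transporter, subclones 1, 2 and 3 averaged 92.1, 94.65 and 84.2 TPM. Gapdh, Tpi1, Gpi1, Pkm, Hk1, Hk2, Pfkp and Pfkfb3 did not pass, and nor did Vegfa, Ndrg1, Egln1 and Adm, of which Adm stood at -1.06 (adjusted p = 0.0299). Gapdh (-0.06), Tpi1 (-0.11) and Hk2 (-0.39) are on chromosome 6, where subclone 4 was lower. Without subclone 4 they stood at -0.18, -0.22 and -0.51. Hif1a itself, the alpha subunit of hypoxia-inducible factor, had 48.7, 58.8, 60.5 and 61.2 TPM against a range from 57.7 to 98.8 TPM with a median of 69.8, a log2 difference of -0.36 that equals the chromosome 12 median and was no longer called without subclone 4 (-0.24). Without subclone 4 the list had 13 lower and none higher, with all 16 libraries as 1 group 10, and with the unequal-variance test 3.

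The 250 bases before the RefSeq start of these genes were read for the core of the hypoxia response element, ACGTG or GCGTG on either strand, using 1 window per gene for the 9140 genes tested that have one. The core is short, and 59.3% of all windows held it. Of the hypoxia list 17 of 23 windows did, 11 of the 12 genes that fell and 6 of the 11 that did not pass. A match is not a site of binding. The windows of 3 genes that fell are shown from RefSeq on GRCm38.p6, 5′ to 3′ on the strand of the gene, with matches in capitals, since they hold the core in different numbers (5, 2 and 1, overlapping ones included). They are Bnip3 (chr7:138909507-138909756, minus strand), Pgk1 (chrX:106186850-106187099, plus strand) and Egln3 (chr12:54203875-54204124, minus strand).
Bnip3: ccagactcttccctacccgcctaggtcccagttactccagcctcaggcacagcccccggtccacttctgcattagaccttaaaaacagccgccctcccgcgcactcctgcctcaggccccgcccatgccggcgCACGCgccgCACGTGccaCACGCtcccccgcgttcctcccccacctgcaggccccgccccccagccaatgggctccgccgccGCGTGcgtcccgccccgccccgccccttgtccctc
Pgk1: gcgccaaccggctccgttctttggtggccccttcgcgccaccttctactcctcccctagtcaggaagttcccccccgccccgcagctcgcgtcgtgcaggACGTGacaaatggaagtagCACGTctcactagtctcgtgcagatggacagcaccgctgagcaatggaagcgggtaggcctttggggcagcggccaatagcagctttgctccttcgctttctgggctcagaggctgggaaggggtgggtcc
Egln3: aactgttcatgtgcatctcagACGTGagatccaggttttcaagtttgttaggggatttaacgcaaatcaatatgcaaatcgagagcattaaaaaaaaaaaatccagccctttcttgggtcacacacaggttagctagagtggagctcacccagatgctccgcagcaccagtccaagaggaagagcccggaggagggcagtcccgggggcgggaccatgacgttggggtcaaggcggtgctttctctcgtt

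Genes of the integrated stress response and chaperones of the endoplasmic reticulum moved the other way. Of 30 tested, 14 rose and 2 fell, with a median of 0.13, against 3.68% higher over all genes. Hspa5, the main chaperone of the endoplasmic reticulum, had 572, 519, 561 and 597 TPM against a range from 363 to 449 TPM with a median of 419 (log2 difference 0.44 ± 0.0484 SE, adjusted p = 1.83e-06). Hsp90b1 had 528, 573, 569 and 653 TPM against a range from 392 to 498 TPM with a median of 446 (log2 difference 0.39 ± 0.0555 SE, adjusted p = 4.12e-05), and Calr, calreticulin, 686, 700.0, 774 and 821 TPM against a range from 525 to 655 TPM with a median of 617 (log2 difference 0.28 ± 0.0543 SE, adjusted p = 8.23e-04). In these 3 chaperones every library of subclone 5 lay above all others. Xbp1, a transcription factor of the unfolded protein response, had 54.1, 58.8, 59.9 and 63.2 TPM against a range from 40.2 to 49.9 TPM with a median of 45.4 (log2 difference 0.38 ± 0.0464 SE, adjusted p = 5.40e-06), and Asns, asparagine synthetase, 122, 133, 138 and 147 TPM against a range from 77 to 121 TPM with a median of 108 (log2 difference 0.40 ± 0.0463 SE, adjusted p = 2.89e-06). The cystine transporter Slc7a11 (0.58) and the mitochondrial folate enzyme Mthfd2 (0.44) also rose. Asns and Mthfd2 are on chromosome 6, where subclone 4 was lower, and stood at 0.28 and 0.31 without it.

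Of the transcription factors named here, Xbp1 rose and Atf5 fell, while 2 did not pass the test, with Atf4 at -0.03 (adjusted p = 0.7) and Ddit3 at 0.01 (adjusted p = 0.889). Of the 2 genes that fell, Atf5 (-0.27) is on chromosome 7 and Dnajb9 on chromosome 12. Dnajb9, a cochaperone of Hspa5, had 21.6, 19.6, 21.9 and 20.9 TPM, below all others, which ranged from 24.4 to 40.1 TPM with a median of 27.9 (log2 difference -0.52 ± 0.0496 SE, adjusted p = 2.50e-07). With Sel1l (-0.27) and Pdia6 (-0.14, neither called), the 3 members on chromosome 12 had a median of -0.27, and the 27 elsewhere had 14 higher, 1 lower and a median of 0.23. Without subclone 4 the list had 12 higher and 1 lower, and with all 16 libraries as 1 group 7 and 1. With the unequal-variance test, 1 was higher and 1 lower.

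The endoplasmic reticulum stress element (ERSE), searched as its full consensus on either strand, was found in 12 of the 9140 windows (0.131%), and 5 of these belong to the 29 genes of this list with a window, 3 to genes that rose and 2 to genes that did not pass. Its 3 genes that rose are shown as above, with the element in capitals, and they are Hspa5 (chr2:34771840-34772089, plus strand), Calr (chr8:84846932-84847181, minus strand) and Hsp90b1 (chr10:86705445-86705694, minus strand), the last with 2 matches.
Hspa5: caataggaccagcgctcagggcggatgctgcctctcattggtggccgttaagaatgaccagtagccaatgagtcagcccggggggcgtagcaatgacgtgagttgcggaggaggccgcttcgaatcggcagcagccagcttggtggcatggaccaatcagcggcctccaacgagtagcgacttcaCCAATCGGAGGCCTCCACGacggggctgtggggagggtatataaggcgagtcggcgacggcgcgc
Calr: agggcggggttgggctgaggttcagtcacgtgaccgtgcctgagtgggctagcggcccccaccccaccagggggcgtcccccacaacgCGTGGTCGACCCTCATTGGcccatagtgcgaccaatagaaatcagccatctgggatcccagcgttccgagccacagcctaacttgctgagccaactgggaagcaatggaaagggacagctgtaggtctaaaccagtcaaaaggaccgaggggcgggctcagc
Hsp90b1: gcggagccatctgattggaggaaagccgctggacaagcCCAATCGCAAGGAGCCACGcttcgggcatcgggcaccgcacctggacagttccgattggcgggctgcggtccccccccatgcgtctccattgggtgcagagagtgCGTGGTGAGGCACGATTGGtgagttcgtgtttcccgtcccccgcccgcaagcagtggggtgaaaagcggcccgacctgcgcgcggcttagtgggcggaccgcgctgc

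**Figure D5:**
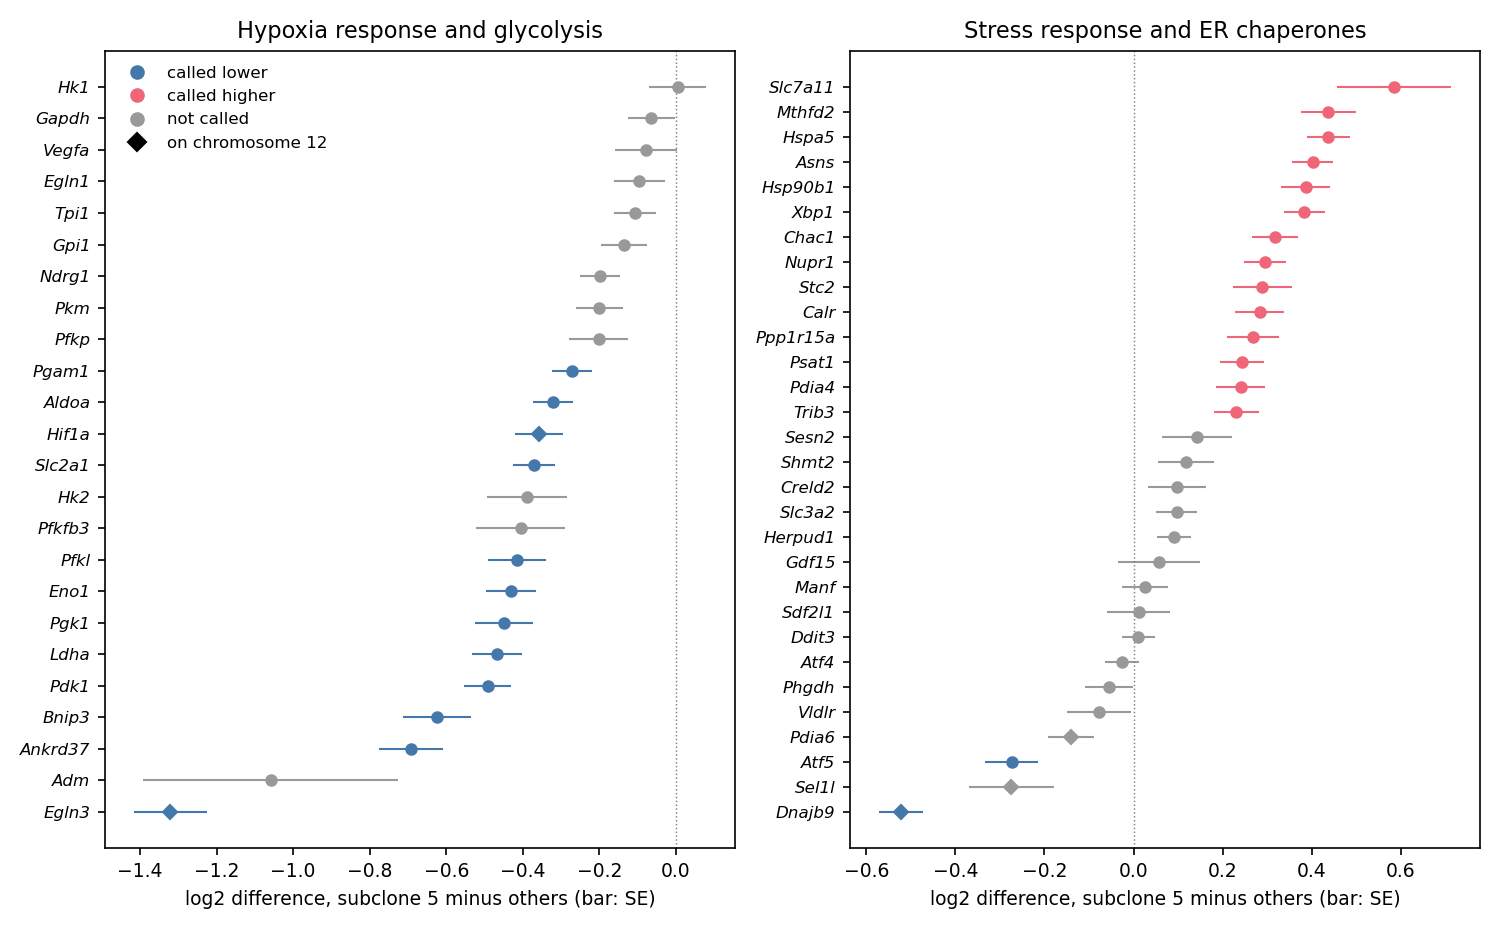
Log2 difference between subclone 5 and the others, with its SE, for the 24 genes tested of the hypoxia and glycolysis list (left) and the 30 of the stress response list (right). Colours mark the calls and diamonds the genes on chromosome 12. On the left 12 genes are lower and none higher, and on the right 14 are higher, with Dnajb9 on chromosome 12 at the bottom.

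Matrix and adhesion genes went both ways, with 10 of 37 higher and 4 lower (median 0.12), against 3.68% and 8.13% over all genes tested. With centring outside chromosome 12 the counts were 15 and 5, and without subclone 4 they were 7 and 3. The collagen IV chains of the basement membrane Col4a1 and Col4a2 rose, with 74.2, 96.9, 91.5 and 104 TPM for Col4a1 against a range from 46.5 to 88.4 TPM with a median of 65 (log2 difference 0.52 ± 0.102 SE, adjusted p = 9.78e-04) and 0.51 for Col4a2, whereas Col4a3 fell (-0.55). Replicate 1 overlapped with the others for both that rose. Col4a3 was nearly as low in subclone 4, with a mean of 16.7 TPM beside 14.9 TPM in subclone 5. Its means in subclones 1, 2 and 3 lay between 19.2 and 29.4 TPM. Lama1 rose (0.71), and Lama3 and the integrin Itga2 fell (-0.87 and -0.55). Subclone 2 was close to subclone 5 for both that fell. The means of Itga2 were 0.968 TPM in subclone 5 and 0.9 TPM in subclone 2. Those of Lama3 were 0.62 and 0.722 TPM, with the highest, 2.675 TPM, in subclone 3. Itgb6, an epithelial integrin, had 5.07, 5.37, 14.4 and 28.7 TPM against a range from 3.74 to 6.07 TPM with a median of 4.77 (log2 difference 1.11 ± 0.272 SE, adjusted p = 0.00589), so that replicates 3 and 4 set its level, and it was no longer called without either of them (0.62 without replicate 4) nor without any 1 of the other subclones. With the unequal-variance test none of the 37 was called.

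Of 40 developmental transcription factors, 11 fell and none rose (median -0.19), against 8.13% lower over all genes tested, and 9 of the 11 lie outside chromosome 12. With centring outside chromosome 12 there were 4 higher and 12 lower, without subclone 4 1 and 6, and without replicate 1 of subclone 5 1 and 7. Besides Zfp503 and Lhx1, these were Irx3, Hoxd9, Hoxb7, Klf5, Hoxd8, Sox4 and Hoxa10, between -0.52 and -0.14, and on chromosome 12 the homeobox factor Six4 fell (-0.33), a call that was lost without subclone 4. With the unequal-variance test none of the 40 was called. Of 18 genes in the list of AP-1 and immediate early genes 5 fell, against 8.13% over all genes tested. They were Egr3, Fosl1 (-0.66), Fosl2 (-0.49) and, on chromosome 12 and near its median of -0.36, Mycn (-0.40) and Max (-0.38). Fosl1 overlaps Ccdc85b on the other strand, which had means of 39.7 TPM in subclone 5 and 45.5 TPM in the others. Without subclone 4 the list had 4 lower, with all 16 libraries as 1 group 3, and with the unequal-variance test 2. Fos, also on chromosome 12, had 126, 215, 131 and 100.5 TPM and ranged over the others from 60 to 503 TPM with a median of 257, a spread too wide for a call at -0.50 (adjusted p = 0.135).

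Collecting duct genes gave 2 higher and 2 lower of 21, or 2 and 1 without subclone 4, against 3.68% and 8.13% over all genes tested. Scnn1g and the urea transporter Slc14a2 rose, and the homeobox gene Hoxb7 (-0.35) and the epithelial factor Elf3 (-0.33) fell. Slc14a2 had 2.06, 2.65, 2.48 and 2.41 TPM in subclone 5 and 4.99 TPM in subclone 4, with means of at most 0.138 TPM in subclones 1, 2 and 3, so its rise of 2.83 is shared with subclone 4. Of 23 chemokines and growth factors 7 rose and 3 fell, against 3.68% and 8.13% over all genes tested. Without subclone 4 the counts were 4 and 1, with the unequal-variance test 1 and 1, and with all 16 libraries as 1 group none was called. Ccl2, which attracts monocytes, had 30.9, 24.7, 28.8 and 28.1 TPM and means of 20.4, 18.5 and 22.9 TPM in subclones 1, 3 and 4, but 0.065 TPM in subclone 2, and its call at 2.21 was lost without subclone 2 (0.46). Il34, a ligand of the Csf1r receptor, had 10.3, 16.4, 8.78 and 7.84 TPM against a range from 1.49 to 9.25 TPM with a median of 4.14 (log2 difference 1.46 ± 0.175 SE, adjusted p = 4.82e-06). The neutrophil chemokines Cxcl5 (-0.60) and Cxcl2 (-0.45) fell, in both cases no longer without subclone 4.

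Of 40 genes of Wnt, BMP, FGF and guidance signalling 6 rose and 6 fell, against 3.68% higher and 8.13% lower over all genes tested. The counts were 17 and 8 when the median of genes outside chromosome 12 was set equal in every library, and 8 and 5 without subclone 4. The inhibitor Dkk3 had 11.8, 12.1, 12.9 and 13.6 TPM against a range from 5.35 to 8.77 TPM with a median of 6.9 (log2 difference 0.84 ± 0.0717 SE, adjusted p = 5.71e-08), and Wnt7a, a ligand, 1.89, 2.39, 2.31 and 2.46 TPM against a range from 3.67 to 5.65 TPM with a median of 4.41 (log2 difference -0.98 ± 0.0919 SE, adjusted p = 2.12e-07), without overlap in either. Of the Id genes, which are induced by BMP signals and hold back basic helix-loop-helix factors, Id1 (0.53), Id3 (0.50) and Id4 (0.92) rose, and Id2 on chromosome 12 fell (log2 difference -0.43 ± 0.046 SE, adjusted p = 1.12e-06). Tgfb2, a growth factor, rose (0.76), and Ltbp1, which binds the latent form of this family, fell (-1.09). In the cell cycle list Ccnd1, cyclin D1, was set apart with 1.02, 1.09, 1.34 and 1.4 TPM against a range from 0.18 to 0.62 TPM with a median of 0.35 (log2 difference 1.53 ± 0.215 SE, adjusted p = 3.27e-05), and passed the filter through subclone 5 alone. Of the 35 genes of that list 3 rose and 3 fell, or 1 and 1 without subclone 4, against 3.68% and 8.13% over all genes tested. Of 16 p53 targets 2 rose and 3 fell, against the same shares of 3.68% and 8.13%. The counts were 5 and 4 with centring outside chromosome 12, and 1 and 3 without subclone 4. Among these targets, the inhibitor Cdkn1a had 153, 176, 175 and 184 TPM against a range from 209 to 268 TPM with a median of 241 (log2 difference -0.48 ± 0.0503 SE, adjusted p = 1.06e-06).

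Imprinted genes outside chromosome 12 gave 3 higher and 2 lower of 19, against 3.68% and 8.13% over all genes tested. With centring outside chromosome 12 the counts were 7 and 2, without subclone 4 they were 2 and 1, and with all 16 libraries as 1 group 0 and 1. H19, a noncoding RNA, had 3.61, 5, 3.26 and 3.66 TPM against a range from 0.5 to 3.91 TPM with a median of 2 (log2 difference 1.00 ± 0.157 SE, adjusted p = 1.05e-04), and Mest (-0.87) and Cdkn1c fell. Mest overlaps Copg2 on the other strand, which had means of 42.6 TPM in subclone 5 and 43.1 TPM in the others. Snrpn was called at 1.72, but it was listed at 0 in all 4 libraries of subclone 2. Its mean of 5.5 TPM in subclone 5 stood beside 4.64, 3.93 and 4.29 TPM in subclones 1, 3 and 4, and the difference was 0.36 without subclone 2, still called. None of the 8 listed genes of the imprinted domain around Dlk1 on chromosome 12 passed the filter of 1 TPM. In the cholesterol and fatty acid synthesis list 4 of 28 fell (8.13% over all genes tested) and none rose, but without replicate 1 of subclone 5 or with the unequal-variance test 1 fell, and without subclone 4 2 fell. The largest fall was that of Insig1, a brake on that pathway, with 54, 59.4, 61.8 and 57.9 TPM against a range from 72.9 to 106 TPM with a median of 86.6 (log2 difference -0.60 ± 0.0452 SE, adjusted p = 1.03e-08). In the interferon list 2 rose and 5 fell of 29, against 3.68% and 8.13% over all genes tested. The counts were 2 and 4 without subclone 4 and 2 and 1 with the unequal-variance test, and Oas1a (0.80) shares 57.6% of its stretches with related genes. Of the markers of other cell types, Vim (0.70, 6.14 TPM) and Cd74 (1.40, 1.24 TPM) rose, and no endothelial or proximal tubule gene passed. Without subclone 4 Vim was no longer called, and 1 proximal tubule gene was called lower.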

How the data were processed

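RNA of 5 subclones of mIMCD-3, with 4 libraries each, was sequenced for the authors at a company. Per the study's methods, reads were filtered for adapters and quality, then aligned to GRCm38 with STAR 2.7.3a and Ensembl annotation and quantified per gene with RSEM 1.3.1. CASAVA 1.8 is named in the submitters' processing notes. The deposited values are TPM values, which are read numbers per transcript length scaled to 1 sum per library, with 2 decimals, made by the authors without any scaling across libraries. Whether the library kit marks strand is not given in the sources used here. TPM keeps no read number, so the depth is unknown and the number of libraries limits the precision.

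Subclones were taken from the sample titles. Genes with a mean of at least 1 TPM in subclone 5 or in the 16 other libraries were fitted with limma 3.58.1 (R 4.3.3) on log2(TPM + 0.1) as 5 groups with a trended prior, and subclone 5 was set against the mean of the other 4. An adjusted p (Benjamini-Hochberg over all 12280 genes, two-sided) below 0.01 was a call. The study's methods describe an unequal-variance test on z-scores, and both choices were run as alternatives. Genes set apart were called, differed by at least 1 on the log2 scale and had no library of subclone 5 within the range of the 16 others. Named genes were the 12 largest on each side among genes set apart outside chromosome 12, the genes of chromosome 12 that exceeded or went against its drop, its most abundant genes, and from each of 25 gene lists the 3 largest calls on each side and all members on chromosome 12. Further list members and genes were named after their values were seen, among them the other glycolytic enzymes, chaperones, collagens and Hox genes. The members and lists were chosen with earlier results of these data known. Positions came from GENCODE M21 on GRCm38. The fit was tested on simulated data. The polyclonal culture and WT5, in a separate table, were not used. A few genes of the lists are not reported here.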

Additional observations from a re-analysis of the deposited data

Results flagged for a closer look

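Of 43 groups of 4 libraries tested for the named genes, 5 in subclone 5 had a single library far from the other 3 by Dixon's criterion, which chance alone meets in about 1 of 20 groups. Replicate 1 was that library in 4 of them, with 0.03 TPM for Dzip1, 0.57 TPM for Zfp141, 2.16 TPM for Mro and 4.62 TPM for Fermt1. Replicate 1 was the lowest of the 4 for Dzip1 and Fermt1 and the highest for Zfp141 and Mro. It is also the library in which the 50 most abundant genes took the largest share of TPM (28.5%). Replicate 4 stood apart for Mr1 with 2.15 TPM, the highest of the 4. All 5 genes were still called without the library named.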

How the results depend on the processing

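No alternative turned the direction of the chromosome 12 median, and of the called genes named in the text that of Rnf113a2 turned, to -0.15 without subclone 4, while the median of genes outside chromosome 12 ranged from -0.05 to 0.03. Of 6101 values of genes named in the text or by the rule under the alternatives, 5651 kept their side of the threshold, 402 lost a call and 47 gained one. With the unequal-variance test the calls fell to 438 (155 higher, 283 lower, 93 lower on chromosome 12), and with all 16 other libraries as 1 group to 588 (136 higher, 452 lower, 123 on chromosome 12). Without subclone 4 there were 904 calls, 601 of them lower and 156 of these on chromosome 12. At an adjusted p below 0.05 there were 2432 calls (811 higher, 1621 lower). Calls of higher genes numbered 972 with z-scores and 893 with centring outside chromosome 12, and the share of higher genes among all calls moved from 31.2% to 47.4% and 43.6%. Genes set apart numbered 45 with a pseudocount of 1 and 37 among genes of at least 5 TPM. Leaving out 1 library at a time gave 1037 to 1627 calls, 283 to 622 higher, 727 to 1145 lower, 221 to 305 lower on chromosome 12, a median on chromosome 12 of -0.38 to -0.31 and 70 to 82 genes set apart. The extremes of the higher count came without replicate 4 (283) and without replicate 1 (622, with 727 lower) of subclone 5. The cause was not tested. Pairing of the subclones by replicate number was not apparent. Of 40 same-numbered pairs 6 correlated over 0.1 in their deviations (-0.20 to 0.35), and of 120 pairs with different numbers 17 did (-0.27 to 0.27). A replicate block gave 1288 calls (402 higher, 886 lower, 258 lower on chromosome 12) and 71 genes set apart. Depth is unknown, so precision at low TPM cannot be stated.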
